A study of Homo sapiens with 9 samples.

Results

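RNA sequencing of MV4-11 cells was compared between the 3 libraries whose titles begin with NCO and the 3 whose titles begin with NC1. MV4-11 is a human acute myeloid leukaemia line that carries an MLL (KMT2A) fusion and a mutated FLT3 receptor kinase. Both sets of libraries were labelled as treated with decitabine and taken at 72 h, NC1 as wild type and NCO as CD36 knockdown. A further 3 libraries with the stem KO1, labelled wild type with vehicle, complete the 9 of the series and entered the fit to estimate the spread. How the knockdown was made, whether it is 1 clone or a pool, the dose of decitabine and whether replicates were separate cultures were not given in the sources used here, so p-values measure only the spread between these libraries. The comparison took every gene with at least 1 FPKM (fragments scaled to transcript length and library size) in at least 3 of the 6 NC1 and NCO libraries, which left 12308 of the 60612 genes in the table.

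CD36, a scavenger receptor for long-chain fatty acids and oxidised LDL and the gene that the knockdown label names, was read first. It stood at 2.23, 1.78 and 2.52 FPKM in NC1 replicates 1 to 3 and at 2.31, 2.27 and 2.88 FPKM in NCO replicates 1 to 3. The NCO libraries were thus not lower than NC1 and overlapped them. The log2 difference of CD36 was 0.14 with a 95% interval of -0.10 to 0.38 (limma adjusted p = 0.424, exact two-sided permutation test p = 0.4, where 3 libraries against 3 cannot go below 0.1). KO1, which is not labelled a knockdown, had 0.126 ± 0.0231 FPKM of CD36 (SD, n = 3). Since CD36 does not follow the labels, every direction is given by title stem, as NCO against NC1, and no library was reassigned. Whether the labels of NCO and KO1 are exchanged, treatment included, was not tested, so the treatment of NCO is given only as labelled.

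The 6 libraries had similar FPKM sums and similar numbers of genes detected, though the sums separated by stem. They lay between 505428 and 512787 in NC1 and between 493061 and 496496 in NCO (exact two-sided permutation test p = 0.1, the smallest possible). In these libraries 12137 to 12280 genes reached 1 FPKM. Log2 levels correlated across genes at 0.991 to 0.994 within a stem and at 0.987 to 0.990 between NC1 and NCO. NC1 replicate 3 stood slightly apart, with mitochondrial genes at 14.5% of the FPKM sum against 17.3% to 18.5% in the other 5 libraries. Counts of calls in a gene list depended on single libraries: of 53 list counts of 1 or 2 calls, 29 were 0 without some NC1 or NCO library, and of 38 counts of 3 or more, 25 moved by over 1.5 times. Of 12 markers of the myeloid line 11 passed the filter, MEIS1 being the exception, and their summed level was 744 to 788 FPKM in NC1 and 695 to 734 FPKM in NCO. The markers moved both ways, with CD68 lower (240 against 196 FPKM, a call lost under quantile normalization and the length correction described below), HOXA9 and PTPRC higher (51.2 against 59.5 and 18.8 against 24.4 FPKM) and the other 8 not called. Of lymphoid markers 5 of 10 were at 0 in all 6 libraries, including CD3D, CD3E and MS4A1, and the summed level fell from between 48.9 and 59.9 to between 38.5 and 41.8 FPKM, nearly all of it NKG7. None of the 7 erythroid and megakaryocytic markers passed the filter and 3 were at 0. Of 9 stromal and epithelial markers 3 passed, with summed levels of 30.3 to 31.8 FPKM in NC1 and 28.5 to 31.5 FPKM in NCO. Most of this sum was PECAM1, not called at 25.4 against 26.8 FPKM. KRT8 was called lower, at 3.14 against 1.55 FPKM, also with any 1 library left out. The part of these markers in the results below was not tested.

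The leading difference concerned genes of the interferon response. Interferons bind receptors whose kinases, JAK1 and TYK2, phosphorylate STAT proteins, and these join IRF9 in a complex that binds the interferon-stimulated response element (ISRE) in promoters. The genes so induced encode proteins that bind viral RNA, block viral entry or tag proteins with ISG15. Decitabine and related drugs are known to induce such genes in cancer cells, in part through transcription of endogenous retroviral elements. The promoters of the 3 genes with the largest differences that hold an ISRE core are shown because that element marks many genes of this response. Each run is a RefSeq promoter window on GRCh38.p14 that reaches from upstream of the gene's start into its first transcribed bases, on the gene's own strand, and capitals mark the core, which reads GAAA, any 2 bases and GAAA again, or its reverse complement. They lie at chr14:94110486-94110785 on the plus strand for IFI27, chr17:78979874-78980173 on the minus strand for LGALS3BP and chr11:313790-314089 on the plus strand for IFITM1.
IFI27: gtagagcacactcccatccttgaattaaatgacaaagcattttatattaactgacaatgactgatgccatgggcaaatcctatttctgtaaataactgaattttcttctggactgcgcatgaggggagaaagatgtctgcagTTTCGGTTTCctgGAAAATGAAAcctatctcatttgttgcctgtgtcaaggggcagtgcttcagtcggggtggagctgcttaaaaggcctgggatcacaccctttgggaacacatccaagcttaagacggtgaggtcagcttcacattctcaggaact
LGALS3BP: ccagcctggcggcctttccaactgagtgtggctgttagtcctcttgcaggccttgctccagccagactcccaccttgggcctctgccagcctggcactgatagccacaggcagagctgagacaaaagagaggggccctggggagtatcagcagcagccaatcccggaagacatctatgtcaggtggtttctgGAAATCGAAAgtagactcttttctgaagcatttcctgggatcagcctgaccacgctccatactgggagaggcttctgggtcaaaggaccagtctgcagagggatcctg
IFITM1: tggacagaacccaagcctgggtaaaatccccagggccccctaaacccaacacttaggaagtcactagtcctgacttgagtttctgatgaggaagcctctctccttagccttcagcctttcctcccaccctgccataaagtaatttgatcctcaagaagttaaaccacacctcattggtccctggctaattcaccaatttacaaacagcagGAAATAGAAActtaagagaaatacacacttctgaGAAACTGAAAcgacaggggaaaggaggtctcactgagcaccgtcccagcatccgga

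In these promoters the matches begin at -108 and -95 from the start in IFI27, at -58 in LGALS3BP and at -40 and -6 in IFITM1. A promoter sequence was matched for 9190 of the tested gene symbols. The ISRE core, searched on both strands, was found in 3.65% of all 27305 promoters and in 2.96% of those of tested genes. Of the antiviral effectors and ISG15 genes it was in 20 of 32 promoters, among them 15 of the 20 whose gene was lower in NCO and 5 of the 12 whose gene was not. Genes lower in NCO held it in 46 of 830 promoters (5.54%), and in 3.83% once the antiviral and ISG15 genes were set aside. Genes higher in NCO held it in 14 of 602 promoters (2.33%). A match is a description of the letters and shows no binding.

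Antiviral effectors were lower in NCO in 23 of the 34 members measured, all of which passed the filter, and none was higher. Across all genes 15.2% were called at an adjusted p under 0.05, 8.9% lower and 6.35% higher. The lower share rose with level, to 25.3% in the highest of 5 bins of NC1 mean FPKM (23.9 FPKM and above). For lists of abundant genes 8.9% is therefore a low yardstick. The median log2 difference of the 34 effectors was -0.40 against 0.01 over all genes tested, and 21 to 23 members were lower with any 1 library left out. In bulk RNA, fewer cells that express a gene and less RNA of it per cell cannot be told apart.

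IFI27, a small mitochondrial and nuclear envelope protein that is among the strongest interferon-induced genes, led the list. It had 388, 371 and 428 FPKM in NC1 and 140, 136 and 134 FPKM in NCO. Every NCO library was far below every NC1 library, the ratio of means was 0.346, and the log2 difference was -1.52 ± 0.07 (SE; limma adjusted p = 1.7e-06). LGALS3BP, a secreted glycoprotein that binds galectins, had 44.7, 46.4 and 46.7 FPKM in NC1 and 21.2, 18.19 and 18.03 FPKM in NCO. Its groups did not overlap either, with a log2 difference of -1.22 ± 0.08 (limma adjusted p = 1.57e-05). In KO1 the same genes stood at 7.04 ± 0.897 and 2.81 ± 0.422 FPKM (SD, n = 3), below both sets of libraries labelled as treated with decitabine.

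The IFITM proteins sit in membranes and block the fusion of enveloped viruses. IFITM3 had 648, 660 and 656 FPKM in NC1 and 341, 329 and 320 FPKM in NCO, and IFITM1 had 344, 355 and 370 against 177, 170 and 164 FPKM. Both were near one another within a stem and clearly apart between stems, with log2 differences of -0.99 ± 0.07 and -1.06 ± 0.05 (limma adjusted p = 1.43e-05 and 1.64e-06). IFITM2 went from a mean of 221 to 144 FPKM. The IFITM1 and IFITM2 gene models overlap on the same strand and the proteins are close paralogs, so the split of reads between them is uncertain. IFI6, a membrane protein that restrains virus replication and apoptosis, had 659, 712 and 748 FPKM in NC1 and 359, 358 and 359 FPKM in NCO, a log2 difference of -0.97 ± 0.06 (limma adjusted p = 8.9e-06). LY6E, a surface protein anchored by a lipid, fell from 169 ± 9.72 to 85.3 ± 5.21 FPKM (SD, n = 3, limma adjusted p = 1e-05).

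Genes of the OAS and MX families were lower too. OAS1, which makes the oligoadenylate that activates RNase L, had 27.0, 23.6 and 26.4 FPKM in NC1 and 16.9, 18.2 and 17.1 FPKM in NCO (log2 difference -0.53, limma adjusted p = 0.00161). The other OAS genes called were OAS2, OAS3 and OASL, with log2 differences of -0.32, -0.53 and -0.29. IFI44L, whose product feeds back on interferon signalling, was at 5.65, 4.87 and 5.77 FPKM in NC1 and 2.11, 2.06 and 2.19 FPKM in NCO. Its groups were well apart, with a log2 difference of -1.04 (limma adjusted p = 6.38e-05). The dynamin-like GTPases MX1 and MX2 fell by 0.53 and 0.60 on the log2 scale (the call of MX1 was lost without NCO replicate 1, at adjusted p = 0.05001, and with no filter on low values, at 0.0546), and BST2, which tethers budding virus, fell by 0.48.

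Members of the IFIT family did not all differ alike. IFIT3, an RNA-binding partner of IFIT1, had 47.2, 46.3 and 49.5 FPKM in NC1 and 36.3, 34.9 and 33.9 FPKM in NCO (log2 difference -0.43, limma adjusted p = 0.00218). IFIT1, which binds RNA with a foreign cap, had 12.1, 12.2 and 14.3 FPKM in NC1 and 11.5, 13.1 and 11.2 FPKM in NCO. Its libraries overlapped, and the 95% interval of the log2 difference ran from -0.29 to 0.10. IFIT2 stood at 28.4 ± 1.41 and 30.3 ± 2.47 FPKM (SD, n = 3) with an interval of -0.07 to 0.25. Outside that family ZC3HAV1, a protein that binds CpG-rich viral RNA, was at 51.2 ± 1.504 FPKM in NC1 and 51.0 ± 1.45 FPKM in NCO, with an interval of -0.16 to 0.15. IFIT1, IFIT2 and ZC3HAV1 were singled out after their values were seen. All of them are genes that stood far lower in KO1, at 0.502 ± 0.103, 1.13 ± 0.0886 and 6.82 ± 0.843 FPKM. Within the list the difference between NC1 and NCO therefore ran from -1.52 for IFI27 to none that could be detected for these genes.

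**Figure D1:**
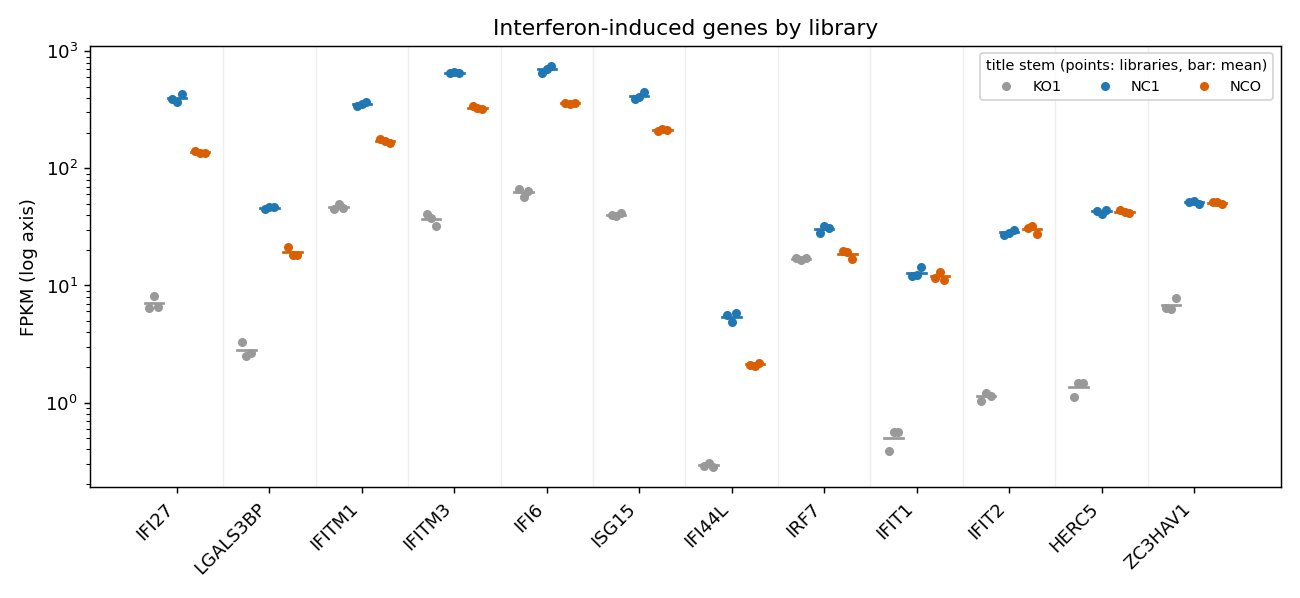
FPKM of 12 interferon-induced genes in each library on a log axis, by title stem, with points for libraries and bars for means of 3. IFI27 to IRF7 are lower in all 3 NCO libraries than in all 3 NC1 libraries, and IFIT1, IFIT2, HERC5 and ZC3HAV1 overlap.

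ISG15 and its conjugation enzymes split in the same way. ISG15 itself, a ubiquitin-like protein joined to targets and also secreted, had 395, 404 and 448 FPKM in NC1 and 211, 216 and 213 FPKM in NCO. The groups were wide apart, with a log2 difference of -0.96 ± 0.05 (limma adjusted p = 2.54e-06). UBE2L6, the enzyme that carries ISG15 to its ligase, went from 105 ± 2.51 to 79.7 ± 3.97 FPKM (SD, n = 3), a log2 difference of -0.39 (limma adjusted p = 0.000658). The main ligase HERC5 had 43.3, 41.0 and 44.4 FPKM in NC1 and 43.8, 42.4 and 41.9 FPKM in NCO. These overlapped, with an interval of the log2 difference from -0.16 to 0.14. TRIM25, a further ligase, was called higher, at 23.1 against 28.3 FPKM, a call that was lost in 5 of 19 alternatives (without NC1 replicate 2 or NCO replicate 1 at adjusted p = 0.0558 and 0.0596, within a range of 0.00515 to 0.0596). The 2 lower and 1 higher of 7 genes give a median of -0.14.

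Upstream genes were called in both directions, with 3 of 21 receptors, kinases, STATs and IRFs lower and 3 higher (median -0.05). The higher count was 1 without NC1 replicate 2, NCO replicate 1 or NCO replicate 2, and the lower count was 1 without NCO replicate 2. IRF7, the factor that amplifies type I interferon, had 28.2, 31.9 and 31.2 FPKM in NC1 and 19.6, 19.2 and 16.9 FPKM in NCO. All NCO libraries were below all NC1 libraries, by -0.69 ± 0.07 on the log2 scale (limma adjusted p = 0.000301). JAK2, a kinase of cytokine receptors, was higher, at 4.23, 3.65 and 3.83 FPKM in NC1 and 5.64, 5.80 and 5.20 FPKM in NCO (log2 difference 0.42, limma adjusted p = 0.00672).

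Smaller interferon-linked families had calls in small numbers, all of them lower, where 8.9% of all genes were lower. Among nucleic acid sensors and adaptors 3 of 14 tested were lower and none higher (median -0.12), among them IRF3, the factor switched on by the sensors, at 58.1 against 46.9 FPKM. Guanylate-binding proteins and interferon-induced PARPs gave 2 lower of 9, PARP9 and PARP10, and the APOBEC3 deaminases, which mutate single-stranded DNA, gave 3 lower of 6, APOBEC3A, APOBEC3C and APOBEC3F. None of these 5 kept its call in every alternative, and without NC1 replicate 3 none of either family was called.

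Antigen presentation by MHC class I draws on peptides cut by the immunoproteasome, whose subunits interferon induces. All 5 immunoproteasome genes were lower in NCO, with a median of -0.40, and 4 or 5 were lower with any 1 library left out. PSMB9, a catalytic subunit, had 124, 125 and 109 FPKM in NC1 and 91.1, 89.4 and 85.2 FPKM in NCO (log2 difference -0.43, limma adjusted p = 0.00158). The catalytic subunit PSMB10 had 140, 146 and 163 against 115, 113 and 109 FPKM, and the activator subunit PSME2 had 128, 135 and 133 against 97.5, 101 and 101 FPKM. No NCO library reached the lowest NC1 library of any of these genes. The constitutive core was lower in 8 of 14 (median -0.23), with 5 to 7 when 1 library was left out, 5 of them without NCO replicate 1 or 2. Of the core genes 5 were lower after the length correction described below and 3 under quantile normalization.

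MHC class I and peptide loading genes were lower in 6 of 15 and higher in 1, with a median of -0.06 that became 0.01 once mitochondrial genes were removed and libraries rescaled. That rescaling also moved the median of all genes from 0.01 to 0.07, and 5 of the 15 were still lower. HLA-B fell by 0.32 on the log2 scale and the peptide transporter TAP1 by 0.27. HLA genes are polymorphic and similar to each other, so reads may be split between them. Class II presentation was lower in 7 of 14 and higher in 1 (median -0.17), with 4 lower without NC1 replicate 2. After the length correction described below 3 were lower (median -0.11), and under quantile normalization 4 were. HLA-DRA, the alpha chain of HLA-DR, had 34.4, 34.6 and 38.2 FPKM in NC1 and 25.9, 28.2 and 25.1 FPKM in NCO, against 4.29 ± 0.33 FPKM in KO1 (SD, n = 3). The member that was higher was RFX5, a factor that binds class II promoters, at 27.2 ± 0.816 against 34.1 ± 2.00 FPKM (SD, n = 3, limma adjusted p = 0.00497).

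Chemokines were lower in 7 of the 12 tested and higher in none (median -0.42). CXCL10, an interferon-induced attractant of T cells, had 22.2, 23.5 and 30.2 FPKM in NC1 and 13.8, 14.96 and 15.6 FPKM in NCO (log2 difference -0.73, limma adjusted p = 0.00158). CCL3, an attractant of monocytes, had 31.2, 32.6 and 38.2 FPKM in NC1 and 21.9, 20.5 and 20.5 FPKM in NCO (log2 difference -0.67, limma adjusted p = 0.000444). Both sets of values were apart in all libraries. CCL3L3 is a near copy of CCL3 and reads may be shared between them. CCL2, an attractant of monocytes, differed from this order across stems: it fell from 10.8 ± 0.874 to 7.82 ± 0.806 FPKM (SD, n = 3), while KO1 stood at 14.2 ± 0.158 FPKM.

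Over the whole transcriptome the differences were many and small. Of 12308 genes 1876 were called, 781 higher and 1095 lower in NCO. On the log2(FPKM + 1) scale 1 called gene (0.00812%) was at least 2-fold higher and 10 (0.0812%) were at least 2-fold lower, a scale that understates changes of low genes. At 1.5-fold the counts were 13 higher and 89 lower, and the median size of a called log2 difference was 0.30. The 3 libraries of each stem did not overlap for 34.8% of all genes and for 1864 of the 1876 genes called. The largest differences were named only where the libraries did not overlap, so such separation adds no support to those calls. Named genes with official symbols among the 10 lower ones were IFI27, LGALS3BP, IFITM1, IFI44L, AXL, EVA1B and NDUFC2-KCTD14, the last a readthrough transcript that overlaps NDUFC2 on the same strand and had 6.70, 6.42 and 4.08 FPKM in NC1 and 1.05, 1.90 and 0 FPKM in NCO. How reads were split between these overlapping models is uncertain, and the call was lost without NC1 replicate 1 or 2 (adjusted p = 0.0585 and 0.0587, with 0.00619 to 0.095 over the alternatives). The 2-fold higher gene was a MATR3 model (ENSG00000280987) at 8.42 against 21.3 FPKM, while the overlapping MATR3 model ENSG00000015479 stood at 16.1 against 10.2 FPKM, so that a shift of reads between models of the gene cannot be told apart from a change in level. The balance of calls moved with scaling: of the genes called, 41.6% were higher with values as deposited. That share was 53.7% with quantile-normalized values and 69.8% when libraries were rescaled without their mitochondrial genes.

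**Figure D2:**
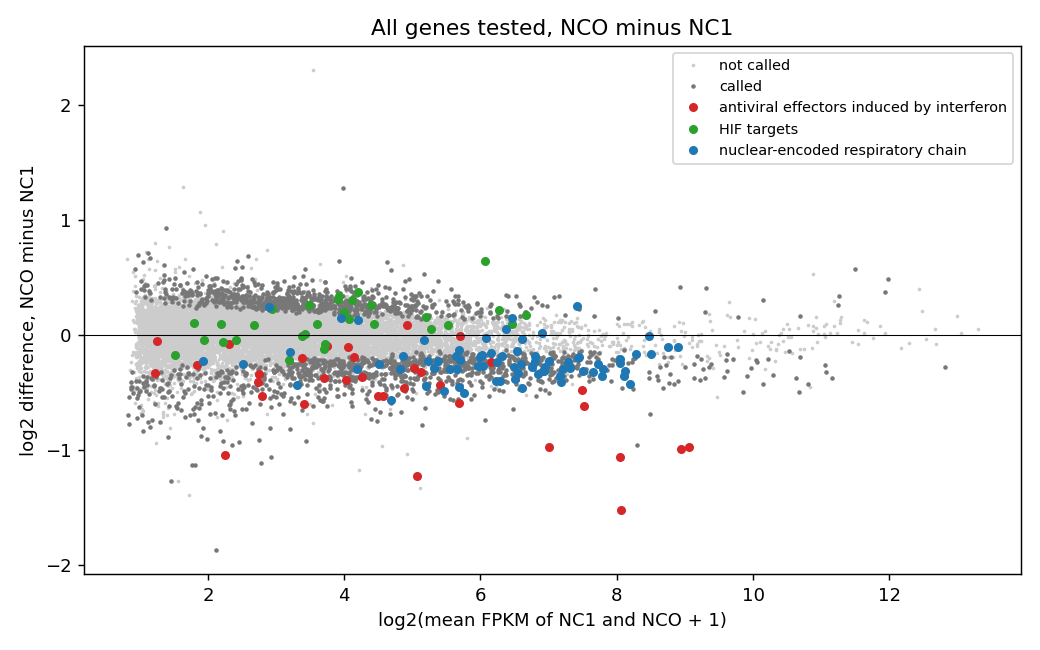
Log2 difference NCO minus NC1 against the log2 mean level for the 12308 genes tested, with members of 3 lists marked. Antiviral effectors reach from about no difference to -1.52, most HIF targets lie above 0 and most nuclear-encoded respiratory chain genes lie below it.

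The difference also followed transcript length. Genes were split into 5 equal bins by their longest GENCODE 29 transcript. In the bin of the shortest, 54 to 1847 bases, 22.1% were lower in NCO and 1.43% higher. In the bin of the longest, 5525 to 34526 bases, 1.71% were lower and 13.6% higher. The medians rose in order through the bins, from -0.13 over -0.05, 0.01 and 0.06 to 0.11. For a value per library, each gene's log2 level was first centred on its mean over the 6 NC1 and NCO libraries. The median deviation of the longest bin minus that of the shortest was then taken. It was -0.10, -0.15 and -0.12 in NC1 and 0.15, 0.13 and 0.08 in NCO. All 3 libraries of each stem thus shared the trend (exact two-sided permutation test p = 0.1, the smallest possible). The centring sets the zero, so only the difference between stems has meaning here, not the sign. GC content ran alongside, with 3.91% lower in the bin of lowest GC and 17.7% in the bin of highest GC. So did level, with 2.48% lower in the bin of lowest NC1 mean FPKM and 25.3% in the bin of highest. Chromosome 19, rich in short and GC-rich genes, had 156 of 951 genes lower and 18 higher. What part length, GC or level has in any difference was not tested. As an alternative chosen after seeing this, a smooth trend on length was removed from each library, which left 546 genes higher (4.45%) and 707 lower (5.76%). The antiviral effectors then had 22 lower and a median of -0.40. Counts after the correction stand beside only some of the lists that follow, and lists without one may have moved as well. Immune checkpoint molecules, for example, then had 4 lower. Cholesterol synthesis had 3 higher and none lower, and ATF4 targets had 6 higher and 2 lower.

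**Figure D3:**
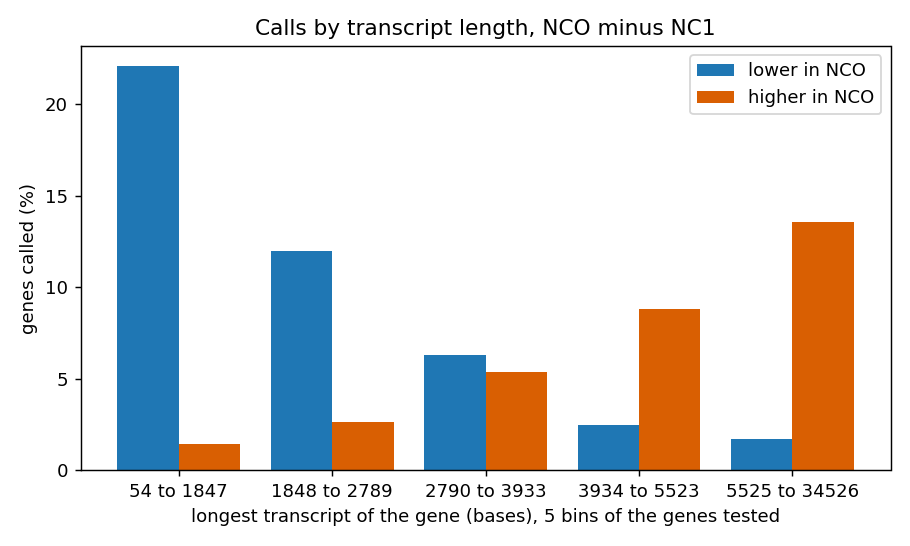
Percent of genes called lower (left bars) and higher (right bars) in NCO, by 5 bins of transcript length in bases. Lower calls fall from 22.1% to 1.71% and higher calls rise from 1.43% to 13.6% from the shortest to the longest bin.

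Targets of the hypoxia-inducible factors (HIF) were one of several lists with higher calls and no lower one. HIF is a transcription factor that oxygen-dependent hydroxylases mark for destruction, and its targets serve glucose uptake, vessel growth and removal of mitochondria. Of 30 members tested, out of 34 in the table, 9 were higher and none lower. The median was 0.09, against 0.01 over all genes. The count was again 9 after the length correction, and 6 to 9 with 1 library left out. The list's median stayed above 0 under each scaling tried. With mitochondrial genes removed and libraries rescaled it was 0.16, where the median of all genes was 0.07.

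VEGFA, the vessel growth factor, had 51.7, 50.3 and 51.3 FPKM in NC1 and 83.9, 79.8 and 78.2 FPKM in NCO. No library of one stem came near those of the other, and the log2 difference was 0.65 ± 0.05 (limma adjusted p = 4.2e-05). In KO1 it was at 81.4 ± 4.52 FPKM (SD, n = 3), so NC1 was the low stem. MXI1, a MYC antagonist, had 14.7, 14.5 and 16.1 FPKM in NC1 and 20.8, 20.2 and 18.7 FPKM in NCO (log2 difference 0.37, limma adjusted p = 0.00625). The oxygen sensor EGLN1 rose by 0.30 on the log2 scale, the histone demethylase KDM4B by 0.34 and the glucose transporter SLC2A1 by 0.22.

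HK2, the hexokinase that commits glucose to the cell, had 12.2, 12.2 and 12.7 FPKM in NC1 and 16.1, 15.2 and 15.6 FPKM in NCO. All NCO libraries were above all NC1 libraries, with a log2 difference of 0.31 ± 0.06 (limma adjusted p = 0.00613). Glycolytic enzymes as a list had 1 higher and 1 lower of 19 (median -0.07). The HK2 promoter is shown as the first of the higher HIF targets to hold a hypoxia element, searched as GACGTG or AACGTG on both strands. It lies at chr2:74833877-74834176 on the plus strand of GRCh38.p14 (RefSeq), and capitals mark matches, here of the reverse complement, at -229 and -48.
HK2: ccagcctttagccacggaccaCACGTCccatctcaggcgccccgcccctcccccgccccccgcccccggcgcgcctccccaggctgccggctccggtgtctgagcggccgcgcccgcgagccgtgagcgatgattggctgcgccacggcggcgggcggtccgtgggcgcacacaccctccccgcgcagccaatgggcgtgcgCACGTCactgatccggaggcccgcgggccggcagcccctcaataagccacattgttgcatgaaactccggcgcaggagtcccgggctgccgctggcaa

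The hypoxia element was in 5 of the 22 promoters matched for HIF targets (22.7%) and in 16.0% of promoters of all tested genes. Only the forms GACGTG and AACGTG were searched, in a short window of few promoters. These shares therefore cannot place the list near the background or away from it.

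The gene with the highest ratio among named higher genes with a model of its own was PPARA, the nuclear receptor that switches on fatty acid oxidation. It had 3.80, 3.27 and 3.67 FPKM in NC1 and 7.15, 5.31 and 6.82 FPKM in NCO, a ratio of means of 1.79. NCO replicate 2 was the lowest of its stem yet above every NC1 library, and the log2 difference was 0.69 ± 0.10 (limma adjusted p = 0.00218). CPT1B, a carnitine palmitoyltransferase that admits fatty acids to mitochondria, had 2.26, 2.63 and 2.55 FPKM in NC1 and 4.07, 3.34 and 4.24 FPKM in NCO (log2 difference 0.49, limma adjusted p = 0.00684). NCO replicate 2 was the lowest of its stem for CPT1B as for PPARA, and a link between these genes was not tested. Among all 21 oxidation genes tested only PPARA and CPT1B were higher, and ETFB and ECHS1 were lower (ECHS1 not without NCO replicate 1 or 2, at adjusted p = 0.0675 and 0.0535, with 0.0113 to 0.267 over the alternatives), with a median of 0.00.

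Fatty acid synthesis and desaturation had 7 of 17 genes higher and 1 lower, with a median of 0.16. The count of higher genes was 4 after the length correction and also 4 without NC1 replicate 2 or NCO replicate 1. SCD, the desaturase that makes oleate, had 72.8, 68.7 and 74.9 FPKM in NC1 and 93.5, 91.8 and 90.2 FPKM in NCO (log2 difference 0.34 ± 0.04, limma adjusted p = 0.00114). Every NCO library exceeded every NC1 library, and KO1 was lower than both at 59.3 ± 0.22 FPKM (SD, n = 3). ACLY, the lyase that supplies cytosolic acetyl-CoA, rose from 51.1 ± 0.825 to 60.6 ± 0.546 FPKM (SD, n = 3, limma adjusted p = 0.00362). HSD17B12, a ketoreductase of fatty acid elongation, rose by 0.38 on the log2 scale.

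In cholesterol synthesis 4 of 25 genes were higher and 2 lower (median 0.07), with 2 higher without NCO replicate 2. SQLE, the squalene epoxidase, rose from 27.9 ± 1.42 to 34.6 ± 0.251 FPKM (SD, n = 3, limma adjusted p = 0.00405), and SREBF2, the regulator of the pathway, by 0.23 on the log2 scale. Lipid uptake, activation and storage, the group to which CD36 belongs, had 2 higher and 1 lower of 23 (median -0.07), and 3 of each without NC1 replicate 3. The lower count was 0 without NC1 replicate 1 or 2 or any 1 of the NCO libraries. ACSL5, which activates fatty acids with coenzyme A, was one of the higher genes, at 10.4 against 12.9 FPKM. Of the PPARG, LXR and apolipoprotein genes 1 was higher and 2 lower of 14 (median -0.16), APOC1 having 12.4, 12.02 and 10.9 FPKM in NC1 and 6.62, 8.22 and 6.57 FPKM in NCO (log2 difference -0.66, limma adjusted p = 0.00149).

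Other large increases fell in genes of unlike function. PAICS, an enzyme of purine synthesis, had 18.1, 17.8 and 18.9 FPKM in NC1 and 27.8, 31.8 and 27.3 FPKM in NCO (log2 difference 0.63 ± 0.07, limma adjusted p = 0.00046). QKI, an RNA-binding regulator of splicing, had 7.37, 7.96 and 7.62 against 11.8, 12.3 and 11.6 FPKM (log2 difference 0.58, limma adjusted p = 0.00124). ZEB2, a repressor of myeloid and epithelial genes, had 10.7, 12.1 and 9.64 FPKM in NC1 and 14.1, 19.2 and 19.5 FPKM in NCO. The stems were separate for all of them, though ZEB2 in NCO replicate 1 was well below the other two NCO libraries (log2 difference 0.65 ± 0.12, limma adjusted p = 0.00703). VEGFA, PAICS and QKI were as high in KO1 as in NCO by their means, at 81.4, 31.9 and 12.1 FPKM, whereas ZEB2 in KO1 was at 9.77 FPKM, near NC1.

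The pocket protein RBL2, which restrains the cell cycle, had 12.6, 13.2 and 13.9 FPKM in NC1 and 20.2, 18.8 and 18.1 FPKM in NCO. IL1RAP, a co-receptor for interleukin-1 that marks leukaemic stem cells, had 3.70, 3.85 and 3.37 against 5.43, 5.54 and 5.58 FPKM. Each NCO library again exceeded each NC1 library, with log2 differences of 0.49 for both (limma adjusted p = 0.0011 and 0.00405). BTAF1, which removes TATA-binding protein from DNA, and SLC25A36, a mitochondrial nucleotide carrier, rose by 0.50 and 0.51. EEF1A1, the translation elongation factor, had 2556, 1991 and 2420 FPKM in NC1 and 3382, 3342 and 3603 FPKM in NCO (log2 difference 0.57, limma adjusted p = 0.00244). It has many processed pseudogenes, to which reads may have been split. P2RY11, AP1M1 and CNOT6L were also among the largest increases, at 3.21, 19.8 and 3.49 FPKM in NC1 and 5.54, 29.5 and 5.81 FPKM in NCO. Their calls were lost in 5, 8 and 5 alternatives, all 3 without NC1 replicate 1 (adjusted p = 0.0665, 0.0796 and 0.0520), and P2RY11 overlaps PPAN and the readthrough PPAN-P2RY11.

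**Figure D4:**
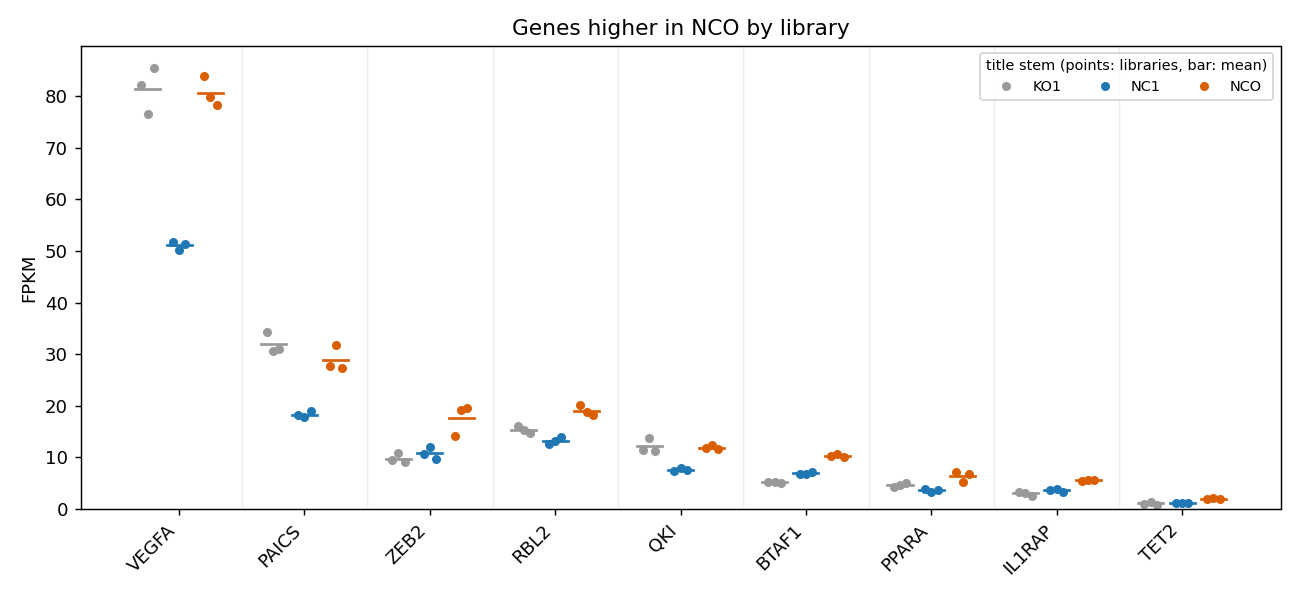
FPKM of 9 genes higher in NCO in each library, by title stem, with points for libraries and bars for means of 3. All 3 NCO libraries lie above all 3 NC1 libraries for each gene, while KO1 is near NCO for VEGFA, PAICS and QKI and near NC1 for ZEB2 and TET2.

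The list of MLL fusion targets, with FLT3 itself as a member, had 7 of 20 genes higher and none lower, with a median of 0.17. After the length correction 5 were higher. FLT3 was not called, at 3.64 FPKM in NC1 and 3.96 FPKM in NCO. This count rested on few libraries: it was 1 without NCO replicate 1, 1 without NCO replicate 2, 3 without NC1 replicate 3 and 4 without NC1 replicate 2. MBNL1, a splicing regulator, rose by 0.26 on the log2 scale and kept its call in all alternatives. HOXA9, the homeobox gene that MLL fusions sustain, had 52.3, 51.6 and 49.7 FPKM in NC1 and 64.1, 59.7 and 54.8 FPKM in NCO. HOXA9's call (adjusted p = 0.0318) was lost in 7 alternatives, among them without any 1 of NC1 replicates 1, 2 and 3 and NCO replicates 1 and 2 (adjusted p between 0.0548 and 0.11). Chromatin modifiers, which have long transcripts, had 9 of 46 higher and 1 lower (median 0.14), but 2 higher and 3 lower (median 0.05) after the length correction, 2 higher without NCO replicate 1 or 2, 3 without NC1 replicate 2 and 5 without NC1 replicate 1. Under quantile normalization 16 were higher and with mitochondrial genes removed 20. KMT2C and EP300, a histone methyltransferase and an acetyltransferase, were higher by 0.47 and 0.40 and kept their calls.

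Genes of amino acid supply had calls on both sides. Of 26 ATF4 targets 5 were higher and 3 lower (median 0.12), and 8 were higher without NC1 replicate 3. ALDH1L2, a mitochondrial folate enzyme, had 8.78, 8.48 and 8.67 FPKM in NC1 and 13.2, 13.2 and 11.1 FPKM in NCO (log2 difference 0.48, limma adjusted p = 0.00215). SLC7A1, the carrier of cationic amino acids, had 14.3, 13.2 and 13.5 against 19.2, 17.9 and 18.3 FPKM (log2 difference 0.41, limma adjusted p = 0.00149). Both were higher in every NCO library. The stress factor DDIT3 went the other way, at 74.8 against 58.3 FPKM, and of 20 aminoacyl-tRNA synthetases 3 were higher and 1 lower, IARS1 rising by 0.34. The higher synthetases numbered 1 without NCO replicate 2, 11 under quantile normalization and 9 with mitochondrial genes removed, and the higher ATF4 targets 13 under either scaling. Endoplasmic reticulum chaperones were lower in 7 of 21 and higher in 2, with 4 lower without NCO replicate 2 and a median of -0.08 that turned to 0.01 under quantile normalization. MANF, a secreted stress protein, had 107, 114 and 104 FPKM in NC1 and 72.6, 78.5 and 83.6 FPKM in NCO (log2 difference -0.47, limma adjusted p = 0.00101). HSP90AA1, a stress-induced cytosolic chaperone, had 131, 135 and 141 against 98.3, 99.2 and 95.7 FPKM (log2 difference -0.47, limma adjusted p = 0.000274), in a list of 22 heat shock genes with 4 lower and 2 higher.

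Nuclear genes of the mitochondria, whose transcripts are short, were often called lower. Nuclear-encoded respiratory chain genes were lower in 43 of 76 and higher in 1 (median -0.25, median transcript length 1432 bases). After the length correction 19 were lower, none higher, and the median was -0.15. Without NCO replicate 1 the count was 28, the lowest of the 6 libraries left out in turn. ATP5F1E, a small subunit of ATP synthase, had 29.6, 26.9 and 32.6 FPKM in NC1 and 19.3, 19.4 and 20.5 FPKM in NCO (log2 difference -0.57, limma adjusted p = 0.00101, and -0.59 after the length correction). Subunit NDUFB11 of complex I fell by 0.46. Mitochondrial ribosomal proteins were lower in 27 of 76 and higher in 1 (median -0.18), with 11 lower after the length correction and 15 without NCO replicate 2. Of the 15 protein and ribosomal RNA genes of the mitochondrial chromosome 1 was lower and 2 higher, the higher count being 0 without any 1 of the NCO libraries. Of its 22 transfer RNA genes 5 were lower and 2 higher (median -0.13). MT-ND5, a complex I subunit, had 2420, 2360 and 1780 FPKM in NC1 and 2712, 2775 and 2757 FPKM in NCO, where NC1 replicate 3 was low as for the mitochondrial share. Its call (adjusted p = 0.0396) was lost in 9 of 18 alternatives, including each NCO library left out in turn (adjusted p between 0.0848 and 0.106).

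Cytosolic ribosomal proteins, nearly as short as the mitochondrial ones in median transcript length, were lower in 5 of 78 and higher in none (median -0.05, and 0.02 after the length correction, when 8 were higher and 2 lower). The lower count was 2 without NCO replicate 1 or 2. NRF2 and glutathione genes, which answer oxidative stress, were lower in 8 of 24 and higher in none, with 4 after the length correction. PRDX1, a peroxidase, had 459, 446 and 518 FPKM in NC1 and 340, 344 and 349 FPKM in NCO (log2 difference -0.46, limma adjusted p = 0.000979). HMOX1, the haem oxygenase, had 11.7, 10.8 and 13.4 against 7.37, 8.77 and 8.05 FPKM (log2 difference -0.51, limma adjusted p = 0.0092). Ferritin light and heavy chains, which store iron, gave the largest falls in FPKM itself, FTL from 7938 ± 261 to 6562 ± 25.2 and FTH1 from 2595 ± 159 to 1997 ± 75.0 (SD, n = 3). The call of FTL was lost after the length correction (adjusted p = 0.0929, with 0.000993 to 0.135 over the alternatives) and that of FTH1 was kept.

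S100 proteins and annexins were lower in 8 of 16 and higher in none (median -0.21). Of these, 3 were lower after the length correction, 5 without NC1 replicate 3, 4 without NCO replicate 1 and 3 without NCO replicate 2. S100A11 fell from 499 ± 29.6 to 373 ± 7.28 FPKM (SD, n = 3, limma adjusted p = 0.00059). Actin cytoskeleton and adhesion genes were lower in 10 of 28 and higher in 2 (median -0.14, and 0.01 under quantile normalization), with 5 lower after the length correction, 5 without NCO replicate 3 and 6 without NCO replicate 1 or 2. TMSB4X, a thymosin that binds actin monomers, had 1692, 1626 and 2481 FPKM in NC1 and 1323, 1334 and 1389 FPKM in NCO. NC1 replicate 3 alone was far above the others, and the call (adjusted p = 0.0377) was lost in 8 alternatives, including each NCO library left out in turn (adjusted p between 0.0673 and 0.103). TMSB10, its relative, was steadier, at 1362, 1454 and 1414 against 1110, 1053 and 1161 FPKM (log2 difference -0.35, limma adjusted p = 0.00162).

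**Figure D5:**
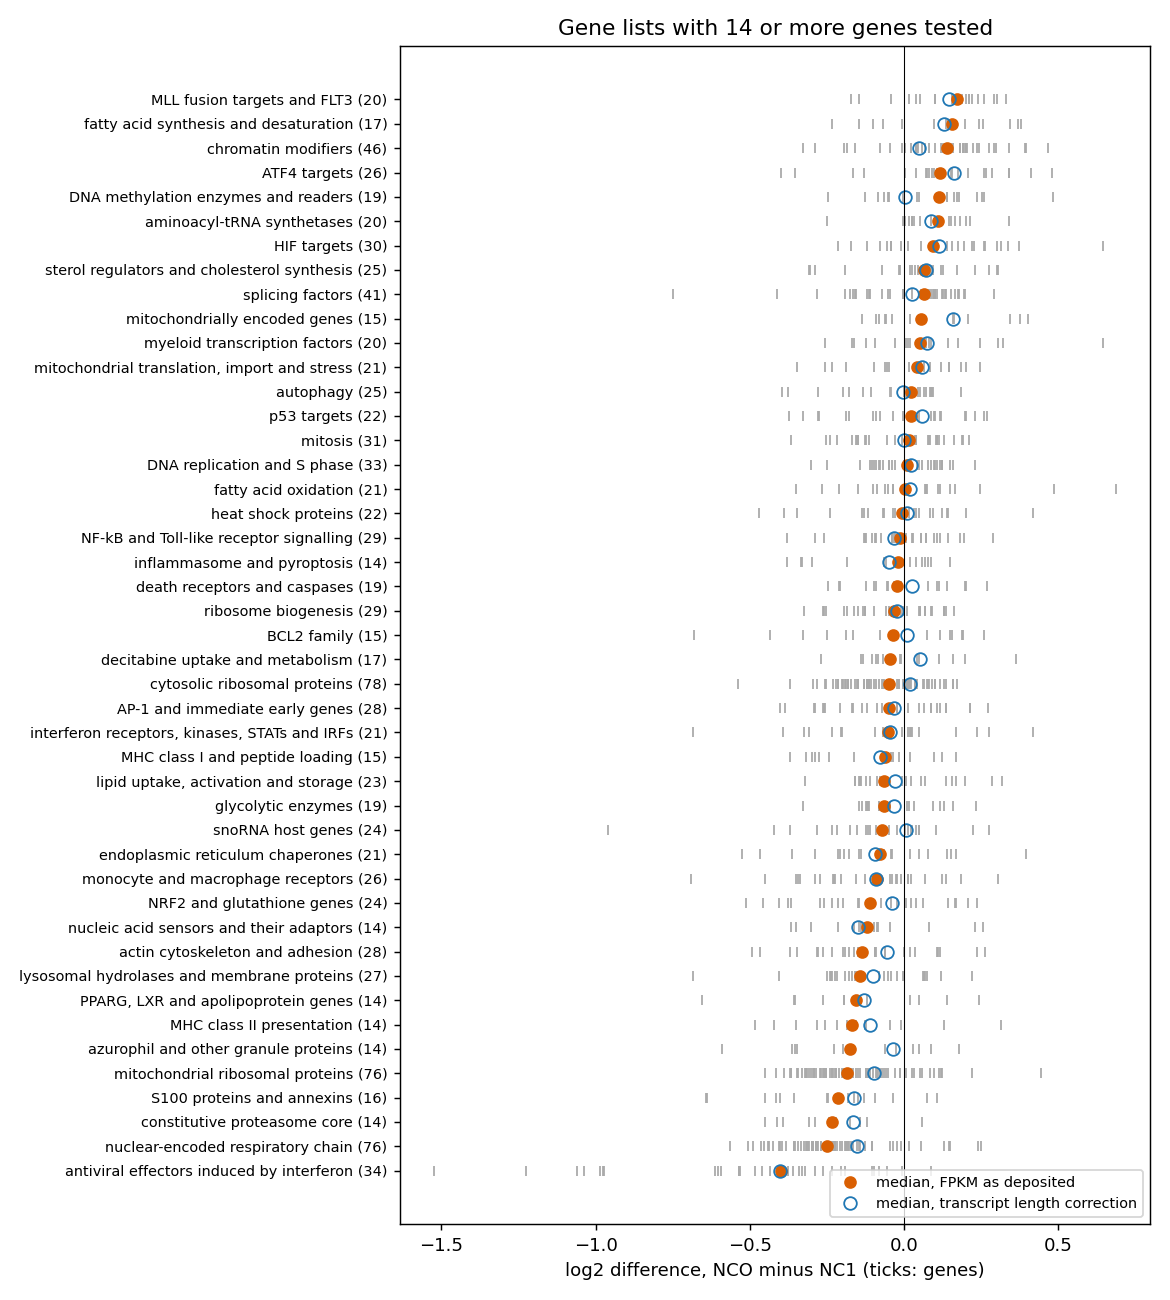
Log2 differences NCO minus NC1 of the members tested (ticks) for lists with at least 14 genes tested, with the list median as deposited (filled) and after the transcript length correction (open). Antiviral effectors have the lowest median under both, at -0.40, and the respiratory chain median moves from -0.25 to -0.15.

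Myeloid genes were called in both directions. Myeloid transcription factors had 4 of 20 higher and 1 lower (median 0.05), with 2 higher without NC1 replicate 1 or 2 or NCO replicate 1 or 2. Monocyte and macrophage receptors had 9 of 26 lower and 1 higher (median -0.09), with 3 lower after the length correction and 5 without NCO replicate 1. SIGLEC1, an interferon-induced macrophage lectin, had 9.55, 9.21 and 10.002 FPKM in NC1 and 6.03, 6.002 and 4.73 FPKM in NCO (log2 difference -0.69, limma adjusted p = 0.00116). Azurophil and other granule proteins were lower in 5 of 14 and higher in none, with 2 lower and 1 higher after the length correction, and 3 lower without NC1 replicate 2, NCO replicate 1 or NCO replicate 2. Lysosomal genes were lower in 7 of 27 and higher in 1, with 6 lower after the length correction. CTSD, the lysosomal aspartic protease, had 431, 454 and 438 FPKM in NC1 and 280, 279 and 265 FPKM in NCO, the largest fall of its list. Its stems were wide apart, with a log2 difference of -0.68 ± 0.04 (limma adjusted p = 8.9e-06), while KO1 was near NC1 at 389 ± 9.31 FPKM (SD, n = 3).

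AXL, a receptor tyrosine kinase that dampens innate signalling and is studied in drug-resistant leukaemia, had 8.12, 8.39 and 8.58 FPKM in NC1 and 3.54, 3.15 and 3.29 FPKM in NCO. No library of one stem approached the other, and the log2 difference was -1.12 ± 0.08 (limma adjusted p = 3.26e-05). Its ligand GAS6 had 24.4, 23.2 and 22.9 against 19.4, 18.5 and 17.9 FPKM (log2 difference -0.32, limma adjusted p = 0.00387). AXL in KO1 was at 1.35 ± 0.211 FPKM (SD, n = 3). Among immune checkpoint molecules 6 of 13 were lower and none higher (median -0.22), with 3 without NC1 replicate 3 or NCO replicate 2. LGALS9, a ligand of the T-cell receptor TIM-3, was one of them, at 88.4, 91.9 and 85.8 FPKM in NC1 and 63.3, 67.2 and 60.1 FPKM in NCO (log2 difference -0.48, limma adjusted p = 0.00126).

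Cell cycle genes had few calls. DNA replication and S phase genes had 2 higher and 1 lower of 33 (median 0.01), and mitosis genes 2 lower of 31 (median 0.02), against 15.2% called over all genes. Of p53 targets 3 were higher and 4 lower of 22, and CDKN1A, the cell cycle inhibitor, had 73.2, 74.5 and 81.5 FPKM in NC1 and 64.6, 63.1 and 61.1 FPKM in NCO (log2 difference -0.27, limma adjusted p = 0.00582). For p53 targets the lower count was 2 without NC1 replicate 2 or 3 or without NCO replicate 2 or 3. Their higher count was 0 without NC1 replicate 1 or 2 or NCO replicate 1 or 2, and 1 without NCO replicate 3. In the BCL2 family 2 of 15 were higher and 4 lower, among them BAX, which permeabilises mitochondria, at 42.6 against 33.7 FPKM. The 2 higher calls of this family were likewise 0 without NC1 replicate 1 or 2 or NCO replicate 1 or 2, and 1 without NCO replicate 3. The splicing factor LUC7L3 and the nuclear RNA MALAT1 were lower by 0.75 and 0.74, MALAT1 with 71.2, 88.3 and 90.7 FPKM in NC1 and 49.9, 48.02 and 50.01 FPKM in NCO.

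Decitabine acts on DNA methylation, so the genes of that system were read as well. Of 19 methylation enzymes and readers 2 were higher and none lower, with a median of 0.11 that was 0.00 after the length correction. Without NC1 replicate 3, 4 were higher and 1 lower, and 1 was higher without NC1 replicate 1 or NCO replicate 1. TET2, the dioxygenase that oxidises methylcytosine, had 1.11, 1.12 and 1.21 FPKM in NC1 and 2.02, 2.06 and 1.91 FPKM in NCO. Its stems were apart by a ratio of means of 1.74 (log2 difference 0.48, limma adjusted p = 0.0108), and KO1 was near NC1 at 1.09 ± 0.259 FPKM (SD, n = 3). DNMT1, the maintenance methyltransferase and a target of decitabine, had 43.1, 46.1 and 44.4 FPKM in NC1 and 50.8, 51.7 and 49.0 FPKM in NCO. That call (adjusted p = 0.0246) was lost in 8 alternatives, among them the length correction (adjusted p = 0.148) and without NC1 replicate 1, NCO replicate 1 or NCO replicate 2 (adjusted p between 0.0709 and 0.095). DCK, the kinase that activates decitabine, was the 1 higher of 17 handling genes, with 1 lower, at 12.4 ± 1.70 against 16.2 ± 1.00 FPKM (SD, n = 3), and lost its call in 6 alternatives, including without NC1 replicate 1 or 2 and NCO replicate 1 or 2 (adjusted p between 0.0838 and 0.0961). Of 44 cancer-testis genes found, 6 passed the filter, and 1 was lower: MAGEA4, a germline antigen silenced by methylation in most tissues, had 4.71, 5.30 and 5.34 FPKM in NC1 and 1.96, 2.53 and 2.20 FPKM in NCO (log2 difference -0.92, limma adjusted p = 0.000274), and 11.0 ± 0.934 FPKM in KO1 (SD, n = 3).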

How the data were processed

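Gene expression in 9 MV4-11 libraries was read from 1 deposited table of FPKM values per gene. Its header names no unit. FPKM was inferred from values that are not whole and whose sums differ between libraries, and from StringTie among the tools. Per the submitters' processing notes the authors used CASAVA 1.8, Trimmomatic, FastQC, HISAT2, StringTie and edgeR with the build GRCh38, in roles not given in the sources used here. Libraries came from Trizol-extracted RNA and a TruSeq RNA kit, per the labels, which do not speak of strand. Depth is unknown and no read steps were recovered (at most 0.799% of low genes shared a ratio between libraries), so no counting interval is given.

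From the deposited FPKM, log2(FPKM + 1) was fitted over all 9 libraries with a mean per stem in limma 3.58.1 (R 4.3.3, trend and robust), contrast NCO minus NC1, Benjamini-Hochberg over the 12308 genes passing the filter, called at 0.05. P-values are two-sided, differences are on this log2 scale, errors given with ± after a log2 difference are standard errors, and ratios are of FPKM means. Single values over libraries were tested by exact permutation. On simulated data with 50 genes altered per size among 12308, 48% of genes changed 1.25-fold and 90% of those changed 1.5-fold were called, and all changed 2-fold. The altered genes were drawn only above a set mean level, so these shares do not cover genes with low values. Changes were added on the log2(FPKM + 1) scale with independent normal noise. The members and the 59 gene lists were chosen with earlier results of these data known, and no list was tested as a set. Genes named are CD36, the 15 largest differences each way among called genes with an official symbol, at least 5 FPKM in a stem and no overlap, up to 4 members per list by adjusted p and the 5 largest FPKM differences each way. Further list members named were chosen after their values were seen. Some genes that the rule names are not reported here. A called gene named with no remark on a lost call kept it in every alternative in which it was tested, apart from JAK1 and NDUFC2. These were named only as background and as an overlapping gene model, and lost their calls in 9 and 14 of 19 alternatives. Motifs were counted in RefSeq promoters on GRCh38.p14, and transcript lengths came from GENCODE 29 for 12264 tested genes. Correlations of deviations between same-numbered NC1 and NCO libraries were 0.05, -0.02 and 0.02, so the numbers do not pair the libraries. Alternatives changed the pseudocount, filter, scaling, libraries in the fit and moderation. Further sheets of the workbook were not used here.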

Additional observations from a re-analysis of the deposited data

How the results depend on the processing

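The split of calls depended on settings. Against 1876 genes called (781 higher, 1095 lower), no filter on low values gave 899 (321 and 578), which also tests 27679 genes. Removing mitochondrial genes and rescaling gave 1749 higher, and a fit of the 6 libraries alone gave 503 higher. Leaving out 1 library at a time gave 931 to 1623 called, 283 to 725 higher and 648 to 903 lower. Totals fell most without NCO replicate 2 (931), NCO replicate 1 (1090) and NC1 replicate 2 (1108), and the higher count fell to 423, 365, 308 and 283 without NC1 replicate 1, NC1 replicate 2, NCO replicate 1 and NCO replicate 2. The lower count was 648 without NCO replicate 2. The transcript length correction, added after seeing the data, gave 707 lower, and the correction for length and GC gave 1222 called and 669 lower. The ISRE core with a further C at its end was in 2.17% of promoters of lower genes, against 5.54% for the core alone. Among all tested genes the longer form was in 0.925% of promoters, against 2.96% for the core. Outside the antiviral and ISG15 lists it was in 0.617% of promoters of lower genes. Apart from what a filter or a smaller fit does by construction, the cause was not tested.

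The replicate numbers do not pair the libraries, and the replicate block gave 1420 called, of which 517 were higher and 903 lower. CD36 was not called in any alternative in which it was tested, with log2 differences from 0.04 to 0.21. Counts of antiviral effectors, MHC class I, immunoproteasome and chemokine genes lower, and of HIF targets higher, stayed within 1.5 times under each alternative run. Depth is unknown, so the reliability of low values cannot be judged from counts.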
